A study of Arabidopsis thaliana with 24 samples.

Results

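LNK1 (AT5G64170), LNK2 (AT3G54500), LNK3 (AT3G12320) and LNK4 (AT5G06980) were taken by name as the LNK gene family, a rule that holds no H3K9ac value but was written with earlier results of these data known. All 4 were found in the deposited table, each with 1 peak, so that they took 4 of its 19435 entries and were 4 of the 17672 genes with an entry. H3K9ac is acetylation of lysine 9 of histone H3, a mark found at the start and along the first part of transcribed genes, and it was profiled by ChIP-seq (sequencing of chromatin pulled down with an antibody) in Arabidopsis thaliana seedlings. The 24 samples held 18 H3K9ac libraries, 3 for each of 6 groups, and 6 inputs, 1 per group.

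All seedlings were 2 days old and whole, and had come from seeds stratified in the cold and darkness. Seeds for growth in the dark also received white light to start germination, and after it a far-red pulse. Whether those of WLc received both steps before their continuous white light is not stated separately. The groups named D were then kept in darkness. Those named R1h were kept in darkness for 47 h and then given red light of 10 μE m-2 s-1 for 1 h, and those named WLc grew in continuous white light of 100 μE m-2 s-1. Each treatment was given to wild type (wt) and to pifq, the pif1pif3pif4pif5 mutant, which lacks 4 PHYTOCHROME INTERACTING FACTORs. In whole seedlings, more cells that carry the mark and more of the mark in each cell cannot be told apart, and R1h and WLc differed in light quality, fluence and duration together.

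LNK proteins are clock-regulated coactivators that are induced by light given in the night. They are not known to bind DNA themselves and act through MYB factors of the RVE8 type, at genes of the evening part of the clock such as PRR5 and TOC1. PIFs are bHLH factors that accumulate in the dark and bind the G-box (CACGTG) and the PBE-box (CACATG), and phytochrome, the red light receptor, leads to their removal in the light. LNK3 was also followed by the study over time with primers of its own, and it had been picked for this in part by the size of its changes in mRNA and H3K9ac, so its values here are a description. The comparison of dark, red light and pifq asks how the mark at these 4 genes followed the light and the loss of PIFs.

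The sequence just before each gene is shown because it holds, or lacks, the elements that PIFs bind. Each run covers 250 bases before and 30 bases after the first annotated start, read 5′ to 3′ on the gene's strand from RefSeq TAIR10.1, with G-boxes and PBE-boxes in capitals. They lie at chr5:25676794-25677073 (minus strand), chr3:20179041-20179320 (minus), chr3:3923265-3923544 (plus) and chr5:2166870-2167149 (plus).
LNK1: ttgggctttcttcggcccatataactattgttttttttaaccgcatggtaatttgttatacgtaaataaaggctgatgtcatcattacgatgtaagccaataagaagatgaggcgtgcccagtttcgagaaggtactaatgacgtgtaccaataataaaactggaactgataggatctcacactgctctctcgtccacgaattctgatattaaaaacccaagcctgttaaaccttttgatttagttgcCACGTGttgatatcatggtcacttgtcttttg
LNK2: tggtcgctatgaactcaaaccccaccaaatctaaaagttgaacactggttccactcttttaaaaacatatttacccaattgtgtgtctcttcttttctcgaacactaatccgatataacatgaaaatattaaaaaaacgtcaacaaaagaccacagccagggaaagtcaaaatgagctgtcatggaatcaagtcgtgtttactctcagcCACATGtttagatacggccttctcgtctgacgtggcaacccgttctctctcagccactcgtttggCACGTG
LNK3: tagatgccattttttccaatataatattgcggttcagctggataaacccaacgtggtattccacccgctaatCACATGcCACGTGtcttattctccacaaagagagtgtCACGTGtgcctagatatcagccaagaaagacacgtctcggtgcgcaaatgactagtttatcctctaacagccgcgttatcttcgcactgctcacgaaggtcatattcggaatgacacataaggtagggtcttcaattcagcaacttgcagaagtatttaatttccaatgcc
LNK4: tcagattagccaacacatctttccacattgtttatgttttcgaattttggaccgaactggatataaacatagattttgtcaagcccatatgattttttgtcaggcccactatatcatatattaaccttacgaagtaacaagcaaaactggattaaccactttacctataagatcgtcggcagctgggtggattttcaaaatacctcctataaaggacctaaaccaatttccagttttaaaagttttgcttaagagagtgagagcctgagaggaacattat

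In the window from 250 bases before to 50 bases after the start, 3 of the 4 genes held a G-box and 2 of 4 a PBE-box, searched on both strands. LNK3 held 2 G-boxes, 171 and 141 bases before its start, and a PBE-box 178 bases before it, separated from the first G-box by a single base. The G-box of LNK1 began 2 bases before its start, and that of LNK2 at position 25 after it, with a PBE-box 41 bases before the start. LNK4 held neither. Among 27443 promoters of protein-coding genes, 7.68% held a G-box and 12.9% a PBE-box in a window of the same length. The evening element (AAAATATCT), which RVE8 binds, was in none of the 4 windows and in 2.82% of all promoters. The CCA1-binding site (AAAAATCT) and the I-box (GATAAG), an element of light-regulated promoters, were also in none of the 4, against 7.88% and 14.6% of all. Inside its H3K9ac peak, LNK4 had 1 PBE-box, 1 CCA1-binding site and 1 I-box, which 40.9%, 24.4% and 63.7% of peaks of like length also held. The LNK1 peak had 1 G-box and 2 I-boxes, held by 21.2% and 62.6% of such peaks. These matches describe letters only, and binding was not measured here.

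The peaks themselves lay downstream of these windows at 3 of the 4 genes. The LNK2 peak (chr3:20178199-20178952, 753 bp) ran from 118 to 871 bp after the first annotated start of a gene of 3701 bp (chr3:20175370-20179070, minus strand) and covered 317 coding, 79 untranslated and 358 intronic bases of 1 transcript model. The LNK3 peak (chr3:3923749-3925250, 1501 bp) ran from 234 to 1735 bp and covered 75.6% of the gene (chr3:3923515-3925502, plus strand), with 798 coding bases. The LNK4 peak (chr5:2167572-2169232, 1660 bp) ran from 452 to 2112 bp and covered 71.7% of the gene (chr5:2167120-2169437, plus strand), with 828 coding bases. Later starts are annotated for these genes, and the peak of LNK3 began 14 bp and that of LNK4 36 bp after one of them. Another start of LNK3, at 3923969, lies 220 bp inside its peak. The median peak of the whole table was 886 bp long.

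The LNK1 peak (chr5:25676122-25677748, 1626 bp) had another shape. It reached from 925 bp before to 701 bp after the start of LNK1 (chr5:25672466-25676823, minus strand), covered 272 untranslated, 430 intronic and 0 coding bases of it, and held the G-box at the start. The table enters the same peak for AT5G64180, which starts 249 bp away on the other strand and has 677 bp under the peak. The signal given for LNK1 therefore cannot be assigned to one of the 2 genes. Divergent neighbours were found at the other members too, with starts 937 bp (AT3G54510), 360 bp (AT3G12300) and 609 bp (AT5G06970) before those of LNK2, LNK3 and LNK4, but none of these reached under the LNK peak. The LNK2 peak also covered AT3G08405, a long non-coding RNA gene of 266 bp on the other strand that has no entry of its own. Within each of the 4 peaks, every stretch of 50 bases, the length of the reads, matched the genome once, so reads of other family members cannot be mistaken for theirs where they match exactly.

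**Figure D1:**
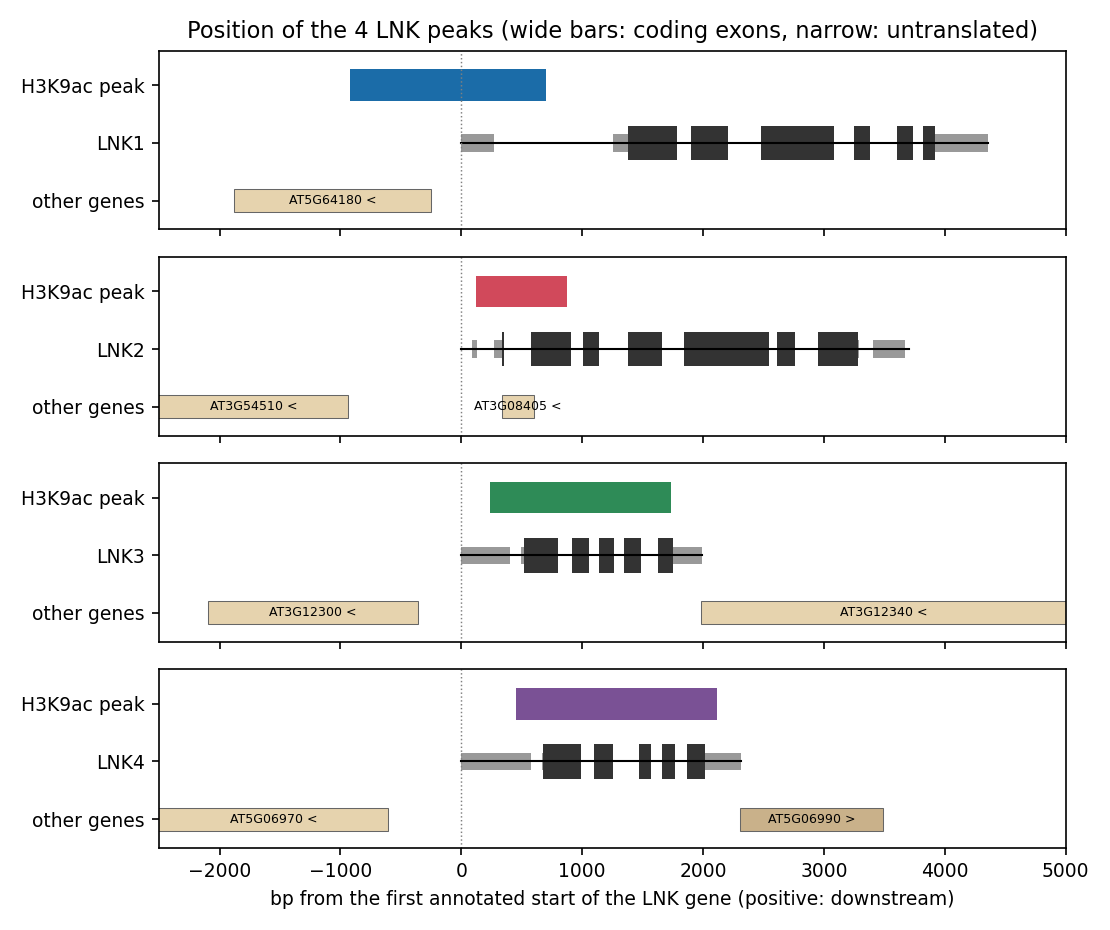
The 4 LNK genes with their H3K9ac peaks, drawn to scale in bp from the first annotated start (dotted line, downstream to the right). Wide bars are coding exons and narrow grey bars untranslated exons of 1 transcript model, the black line spans the whole gene, and in the lowest row of each panel neighbouring genes are marked < on the other strand and > on the same strand. Only the LNK1 peak, from 925 bp before to 701 bp after, crosses the first annotated start, and the LNK3 peak covers a later one.

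For LNK3 the study's own primers show which stretch was followed by PCR.
LNK3 ChIP-5′: cgcttccccttacttgtggt
LNK3 ChIP-3′: acccaaatcagaaaccctcaga
They match the genome at chr3:3923691-3923880 and span 190 bp, from 176 to 365 bp after the start. The first primer lies before the edge of the sequenced peak and the second inside it, so the PCR product takes in the 5′ edge of the peak and not its centre.

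Values are signal per bp of peak as deposited, 1 pooled value per group, and no replicate values, error or depth came with them, so none of the differences could be tested. Medians of the 6 columns lay between 0.711 and 0.723, and totals over all peaks between 98.7% and 100.8% of that of wt D. Changes are log2 ratios after adding a pseudocount of 0.0717 to both values, a peak is counted as higher or lower from a 1.5-fold difference (0.58 on this scale), and the share of all entries past that limit is given where a comparison is counted. None of 11 reference genes, taken like every listed gene by the peak with the most signal, passed the limit in any of the 9 comparisons. Of all entries, 1.58% passed it in either direction in pifq WLc against wt WLc, the smallest share. In wt WLc against wt D, 8.56% were higher and 6.91% lower. Second peaks of 2 of the reference genes, lower in mean signal, did pass the limit. For GAPC2 the changes against wt D were 0.97 (wt R1h), 1.38 (wt WLc) and 0.93 (pifq D). For ACT7 they were -0.81 (wt WLc) and -1.22 (pifq D). Against pifq D, GAPC2 had 0.64 (pifq R1h) and 0.71 (pifq WLc), and ACT7 0.77 (pifq WLc). Against wt R1h, GAPC2 had 0.60 in pifq R1h, and ACT7 -0.91 in pifq R1h and -0.96 in wt WLc.

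LNK3 had the largest difference between wt D and wt R1h. Its signal was 0.559 in wt D, 1.02 in wt R1h and 0.771 in wt WLc, and 0.706, 1.01 and 0.712 in pifq D, R1h and WLc. Both R1h values were the highest of the 6, and the lowest was wt D alone. The position of LNK3 among all peaks moved from the 26.8th percentile in wt D to the 93.4th in wt R1h.

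LNK2, the member with the lowest signal in the dark, was high in both light treatments. It had 0.498 in wt D, 0.753 in wt R1h and 0.745 in wt WLc, and 0.397, 0.731 and 0.782 in pifq. The 4 light values lay within 0.731 to 0.782 and both dark values below them. The highest value was 1.97 times the lowest, against 1.82 times for LNK3.

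LNK4 had the highest signal of the family in every group. It had 0.906 in wt D, 1.09 in wt R1h and 0.896 in wt WLc, and 0.875, 1.16 and 0.837 in pifq. Only R1h stood apart, and the 2 D and 2 WLc values lay together. The values of the peak that LNK1 shares with AT5G64180 were likewise highest in R1h, with 0.722, 0.902 and 0.737 in wt and 0.732, 0.830 and 0.679 in pifq. Their highest value was 1.33 times the lowest for LNK1 and 1.38 times for LNK4.

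**Figure D2:**
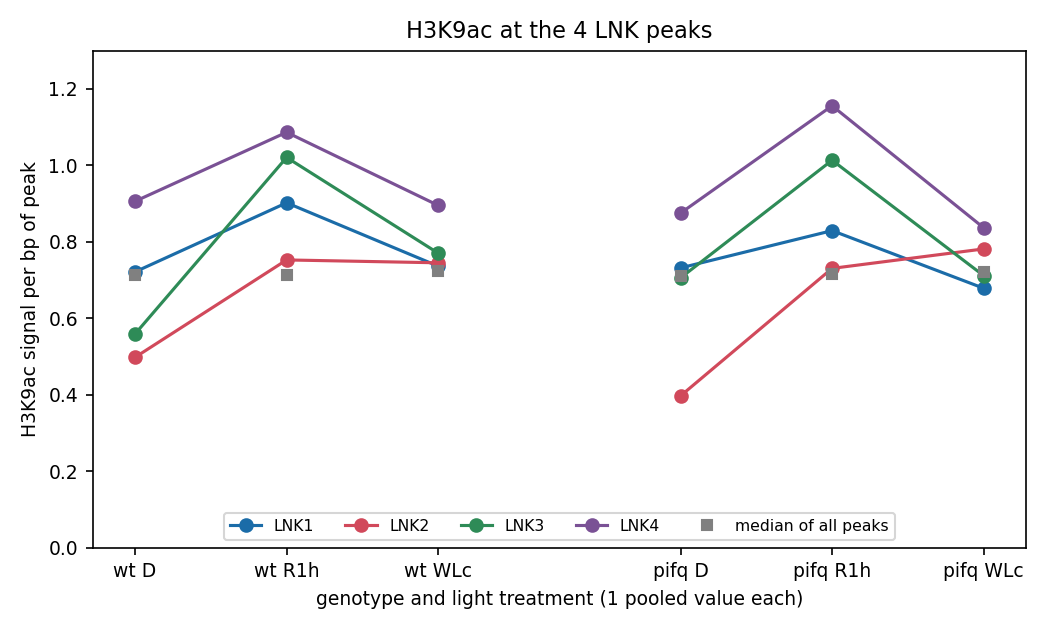
H3K9ac signal per bp of peak (linear axis from 0) at the 4 LNK peaks in the 6 groups, wt on the left and pifq on the right. Each point is 1 pooled value without an error bar, lines join the groups of a genotype, and grey squares are the median of all peaks. All 4 lines are higher in R1h than in D in both genotypes, and of the 4 only that of LNK2 stays near its R1h level in WLc.

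The order of the members, all per bp, was LNK2, LNK3, LNK1 and LNK4 from lowest to highest in wt D and in pifq D. After red light it was LNK2, LNK1, LNK3 and LNK4 in both genotypes, with LNK3 above LNK1. In WLc the levels drew together, from 0.737 to 0.896 in wt and from 0.679 to 0.837 in pifq. The highest member was 1.82 times the lowest in wt D and 2.20 times in pifq D, but 1.22 and 1.23 times in WLc. Without replicates it cannot be said which neighbours in these orders differed beyond their spread. Neighbours such as LNK1 (0.737) and LNK2 (0.745) in wt WLc, or LNK3 (0.706) and LNK1 (0.732) in pifq D, were close.

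After 1 h of red light, the signal of all 4 members was above that of D in both genotypes. In wt, the log2 change was 0.79 for LNK3, 0.53 for LNK2, 0.30 for the LNK1 peak and 0.24 for LNK4, larger than in 97.4%, 95.1%, 89.9% and 87.3% of all entries. Only LNK3 passed the limit, 1 of 4 members higher and 0 lower, against 4.37% of all entries higher and 0.859% lower. The members' median was 0.41 and that of all entries 0.00089. In pifq, red light against D gave 0.77 for LNK2, 0.48 for LNK3, 0.37 for LNK4 and 0.17 for LNK1. Here LNK2 alone passed the limit, with 1.8% of all entries higher and 0.628% lower, and the median was 0.43. The changes of LNK2, LNK3 and LNK4 in pifq were larger than those of 99.1%, 97.3% and 95.8% of all entries, and that of LNK1 than 87.4%.

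In continuous white light the members went apart. Against wt D, LNK2 was 0.52 and LNK3 0.42 higher in wt WLc, while LNK1 (0.03) and LNK4 (-0.02) were at their dark level, and 0 of 4 passed the limit, against 8.56% of all entries higher and 6.91% lower. Against pifq D, LNK2 was 0.86 higher in pifq WLc, more than 98.2% of all entries, and it was the only member past the limit, which 3.76% of all entries passed upward and 1.28% downward. LNK3 (0.01), LNK4 (-0.06) and LNK1 (-0.10) had changes near 0.

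Set directly against R1h of the same genotype, WLc was lower at LNK1, LNK3 and LNK4 and about equal at LNK2. In wt the log2 differences were -0.38 for LNK3, -0.27 for LNK1, -0.26 for LNK4 and -0.01 for LNK2. In pifq they were -0.47 for LNK3, -0.43 for LNK4, -0.26 for LNK1 and 0.09 for LNK2. None of these passed the limit, against 11.2% of all entries in either direction in wt and 2.4% in pifq. In pifq, where most peaks differed little between R1h and WLc, the values of LNK3, LNK4 and LNK1 were nonetheless lower than all but 1.33%, 1.72% and 4.45% of entries. Markers of root tissue differed between some of these groups. Of 7 root markers 4 had a peak. Their summed signal was 3.39 in wt D, 3.40 in wt R1h and 2.49 in wt WLc, and 2.66, 2.95 and 2.92 in pifq. Against wt D, TIP2;3 and SHR passed the limit downward in wt WLc (2 of 4, with 6.91% of all entries lower) and in pifq D (2 of 4, with 4.9%). SCR (-0.03 in wt WLc and 0.04 in pifq D) and the stronger peak of GL2 (-0.07 and -0.08) did not. A second peak of GL2 with less signal had -0.72 in wt WLc, past the limit, and -0.41 in pifq D. Whether the share of root tissue differed between these groups, and whether this had a part in the LNK values, was not tested. None of 6 seed markers had a peak.

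**Figure D3:**
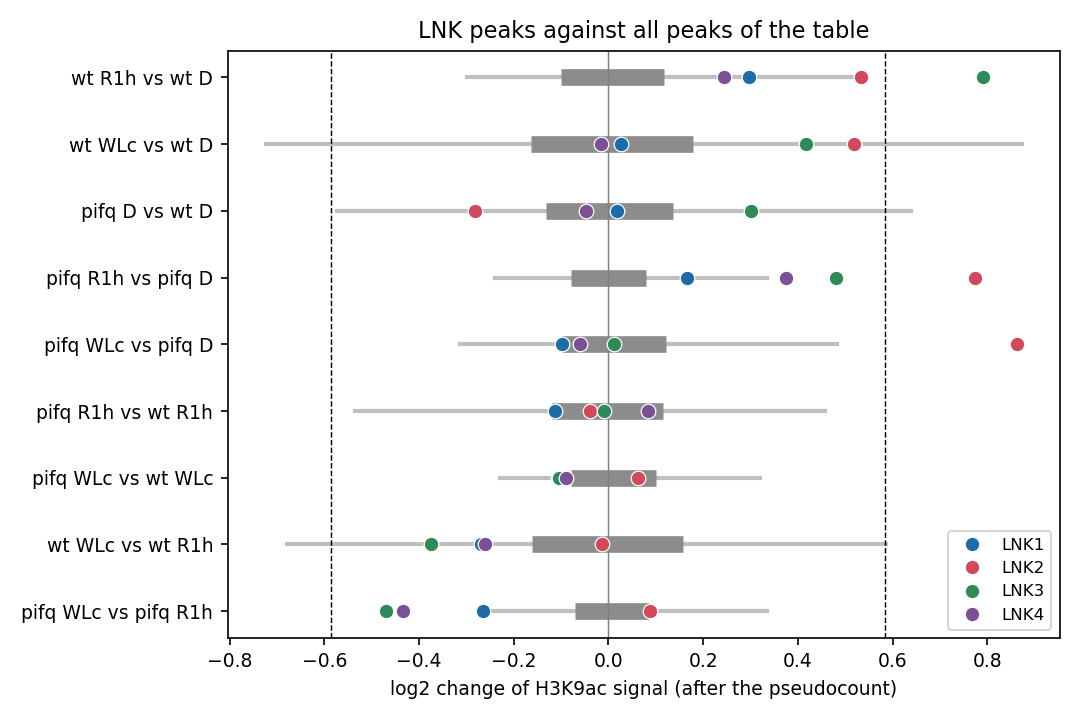
Log2 change of signal at the 4 LNK peaks (points) in the 9 comparisons, over all 19435 entries (thick grey bar, 25th to 75th percentile; thin grey line, 5th to 95th percentile). Dashed lines mark 1.5-fold. LNK3 in wt R1h (0.79), and LNK2 in pifq R1h (0.77) and pifq WLc (0.86), lie beyond the dashed line.

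In the dark, pifq had a higher signal than wt at LNK3 and a lower one at LNK2. The log2 change of pifq D against wt D was 0.30 for LNK3, larger than in 86.5% of all entries, and -0.28 for LNK2, with only 12.1% of entries lower. LNK1 (0.02) and LNK4 (-0.05) differed little, and no member passed the limit, against 5.67% of all entries higher and 4.9% lower. In the light, the genotypes gave nearly the same values. For pifq against wt the change lay between -0.11 (LNK1) and 0.08 (LNK4) in R1h and between -0.11 (LNK1) and 0.06 (LNK2) in WLc. None of the 4 passed the limit there, with 7.3% of all entries past it in either direction in R1h and 1.58% in WLc.

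At LNK3 and LNK2 the genotypes differed more in D than in the light, and the responses to light differed accordingly. At LNK3 the R1h response in pifq was 0.31 smaller than in wt on the log2 scale and the WLc response 0.41 smaller, with 7.19% and 10.8% of entries lower. At LNK2 the R1h response was 0.24 and the WLc response 0.34 larger in pifq, higher than in 94.1% and 87.1% of entries. The promoter windows of both genes hold a G-box and a PBE-box, with the G-box after the start at LNK2 and before it at LNK3. Their dark signals in pifq differed from wt in opposite directions, neither past the limit. A link between these boxes and the signals was not tested. At LNK1 the R1h response was -0.13 and at LNK4 0.13 in pifq relative to wt. These differences were not tested.

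The nearest peaks of other genes had smaller or opposite changes in wt R1h than the LNK peak beside them. On the right of LNK2 lies the nearer of 2 peaks entered for AT3G54510, with its centre 2124 bp away. Its signal was 1.14 in wt D, 0.783 in wt R1h and 0.439 in wt WLc, and 0.545 in pifq D, where LNK2 was low in D and high in light. Its pifq R1h and WLc values, 0.534 and 0.535, were equal to its pifq D value within 0.03 on the log2 scale. On the left, SKIP5 was at 0.777, 0.791 and 0.804 in wt. Next to LNK3, BUG22 (AT3G12300) had a change of 0.09 in wt R1h and AT3G12340 one of 0.28, against 0.79 for LNK3. AT3G12340 had larger changes than LNK3 against wt D in wt WLc (0.45 against 0.42) and in pifq D (0.37 against 0.30). Beside LNK4, AT5G06970 (-0.19) and AT5G06990 (-0.10) were lower in wt R1h than in wt D, and AT5G06990 was 0.59 lower in wt WLc. Beside the LNK1 peak, AT5G64150 (0.15) and SC35 (0.08), which encodes a splicing factor, had smaller changes than the shared peak.

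The MYB factors of the RVE and CCA1 type, among which are the RVE8-type partners of LNK proteins, had peaks for 9 of 10 listed genes. In wt R1h 4 of 9 were higher past the limit and 0 lower, against 4.37% and 0.859% of all entries, with a median of 0.57. These were RVE8 (0.433 to 0.878 signal, log2 change 0.91), an activator of evening genes, CCA1 (0.75), a morning repressor, RVE7 (0.67) and RVE1 (0.64). LHY, the close relative of CCA1, had 0.57 and RVE4, which acts together with RVE8, 0.54. The remaining members with a peak had changes of 0.28 (AT4G01280), -0.007 (AT5G52660) and -0.06 (RVE2) in this comparison. In wt WLc 4 of 9 were higher, RVE1 (0.84), CCA1 (0.79), LHY (0.78) and RVE8 (0.70), with a median of 0.47 and 8.56% of all entries higher. RVE2 was the only one past the limit in pifq D, at -0.63, with 4.9% of all entries lower. With signals kept in WLc at or near the R1h level, CCA1 (0.616 in R1h and 0.635 in WLc) was like LNK2 (0.753 and 0.745), unlike LNK3 (1.02 and 0.771).

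Of 6 listed genes that RVE8 and LNK proteins act on, 5 had a peak, and 2 of 5 were higher in wt R1h, against 4.37% of all entries. PRR9, a repressor of CCA1 and LHY, had 0.040 in wt D, 0.959 in wt R1h and 0.314 in wt WLc. Its log2 change in R1h was 3.21, the largest among the clock genes, and since its D value lay under the pseudocount this understates the ratio. GI, a protein that stabilises the F-box protein ZTL, had 0.393, 0.767 and 0.328, a change of 0.85 in R1h and -0.22 in WLc. TOC1 (-0.17), LUX (0.12) and PRR5 (0.26) did not pass the limit. PRR5 had a second peak with less signal, at 0.248 in wt D and 0.556 in wt R1h, a change of 0.97. In wt WLc against wt R1h, 2 of 5 were lower, with 6.22% of all entries, namely GI (-1.07) and PRR9 (-1.42), where LNK3 had -0.38.

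Of 8 other clock genes 7 had a peak, and 0 of 7 passed the limit in wt R1h (4.37% of all entries higher and 0.859% lower), PRR7 being highest at 0.36. In wt WLc 2 of 7 were lower, against 6.91% of all entries, PRR3 (-0.99) and BOA (-0.95), a relative of LUX. Of the other proteins that work with LNKs, the chromatin factors SPT16 and SSRP1 and the repressor MYB3 with its target C4H had peaks for 4 of 4 genes, and 0 passed the limit in any comparison. The smallest share of all entries past it in either direction was 1.58%, in pifq WLc against wt WLc.

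**Figure D4:**
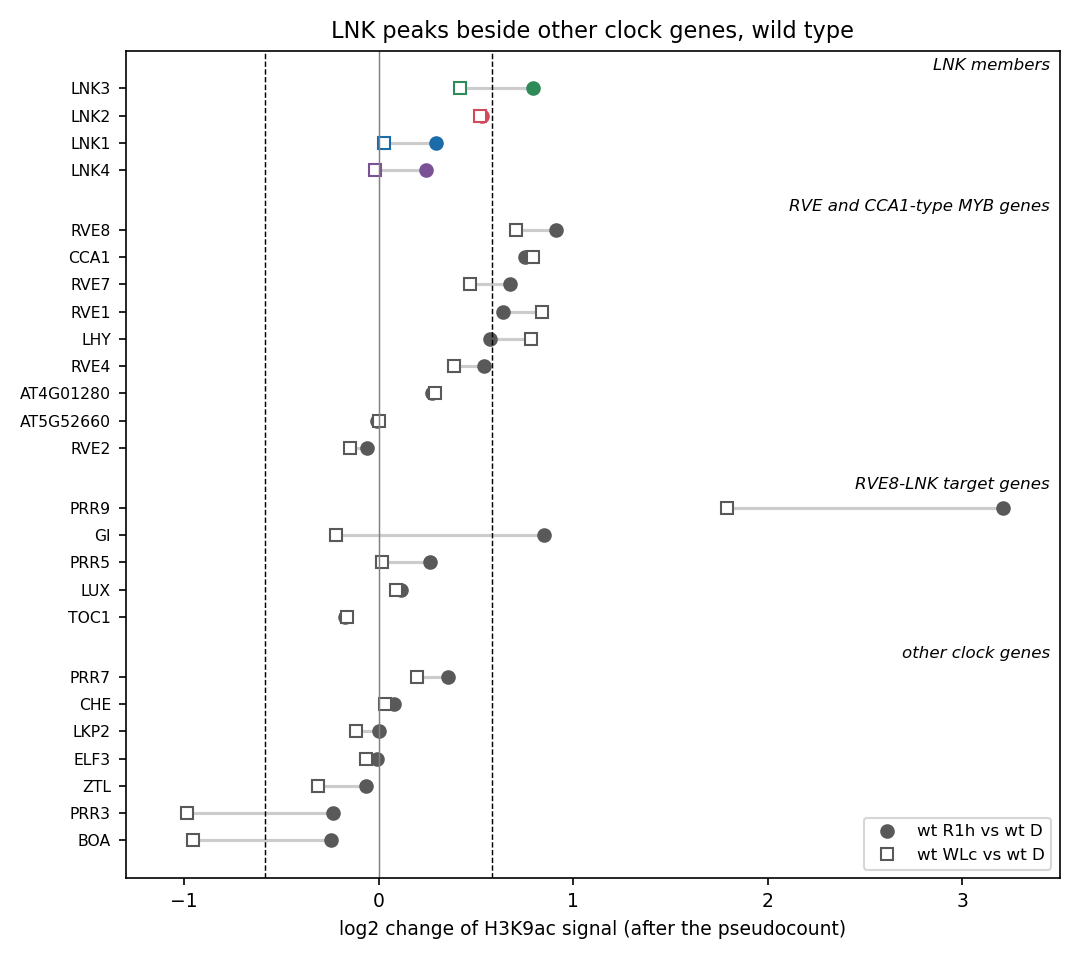
Log2 change of H3K9ac signal against wt D in wt R1h (filled circles) and wt WLc (open squares) for the 25 clock genes with a peak, by list, each from 1 pooled value per group and, for a gene with several peaks, from that with the highest mean. Dashed lines mark 1.5-fold. LNK2 has both values near 0.5, as CCA1 and LHY have both at 0.57 or above, while LNK1 and LNK4 have a value above 0.2 in R1h only.

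The profile of each LNK peak over the 6 groups, centred on its own mean log2 value, was compared with every other entry by the root mean square (RMS) difference. LNK1 and LNK4 were close to each other, at 0.071, with only 0.391% of entries closer to LNK1 and 0.0515% closer to LNK4. LNK3 was 0.174 from LNK4 and 0.188 from LNK1. LNK2 was 0.282 or more from each of the others. The closest peaks of other genes to LNK3 were those of SMZ (0.083), an AP2-type repressor of flowering, PPa2 (0.084) and RVE7 (0.095). For LNK2 they were SP1L4 (0.068), TAT7 (0.070), an aminotransferase, and HYH (0.083), the bZIP homologue of HY5, whose peak is also entered for AT3G17611. For LNK1 they were AT5G19440 (0.032), AT1G62045 (0.032) and AT5G46520 (0.042), and for LNK4 SLO1 (0.035), AT3G22540 (0.050) and AT2G38790 (0.055). Each likeness rests on 6 pooled values.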

How the data were processed

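H3K9ac libraries of wt and pifq seedlings were sequenced as single reads by the authors, who aligned them to TAIR9 with Bowtie2, called enriched regions with BayesPeak, compared them with DiffBind (versions are not given in the sources used here) and gave every region to the closest annotated gene start. The deposited table holds signal per peak and group, with the 3 libraries of a group combined in a way that is not stated. Depth per library is unknown. Whether peak starts count from 0 or 1 is not stated, and they are printed as deposited. All 6 value columns were matched to a group by name, and 0 were left unmatched.

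Log2 changes used a pseudocount of 0.0717 (0.1 of the median value). Because values were pooled, comparisons were described without a test. In lists, a gene with several peaks was given by that of highest mean signal. Named were the 4 LNK genes, all genes of the clock and partner lists with those past 1.5-fold first, the 3 peaks closest to each LNK peak and the nearest genes with a peak; AT3G08405, TIP2;3 and SHR were added after their values were seen. The members and lists were chosen with earlier results of these data known. Symbols not paired with a locus in the reference were not printed. TAIR9 and TAIR10.1 share chromosome sequences. Of the 19332 entries whose gene is in TAIR10.1, 99.7% overlapped that gene. The code was tested on simulated data. Python 3.11.15, numpy 2.4.6, pandas 2.3.3 and matplotlib 3.10.9 were used. Alternatives were other pseudocounts, scalings, signal times length, leaving out weak peaks, a higher and a lower fold limit, and Pearson's r as likeness.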

Additional observations from a re-analysis of the deposited data

Results flagged for a closer look

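In 6 cases the difference between pifq and wt had one direction in D and the other in the light, so that the response to light differed between genotypes; with 1 pooled value per group, these differences were not tested. The response to red light in pifq minus that in wt was -0.13 at LNK1, -0.31 at LNK3 and 0.13 at LNK4 on the log2 scale. The change of direction at LNK3 in red light rests on a difference of -0.01 between genotypes in R1h, which was positive after upper-quartile (0.007), quantile (0.017) and reference-gene scaling (0.013). The response to white light in pifq minus that in wt was -0.13 at LNK1, 0.34 at LNK2 and -0.41 at LNK3. Both cases at LNK1 rest on a genotype difference of only 0.02 in D. That at LNK4 rests on -0.05 in D, which was -0.003 after quantile normalization. The response differences of LNK1 were unremarkable, with 20.4% (red) and 30.5% (white) of entries lower. How many of all entries change direction in this way was not counted.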

How the results depend on the processing

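Over 8 other pseudocounts, scalings and units, the sign of the 36 log2 changes of the members was kept in 32 to 36 cases, and no change that passed the limit changed direction. The count of members higher in wt R1h was 1 and became 2 with a pseudocount of 0.01 of the median or with none, as LNK2 reached 0.59 and 0.60; it became 0 at a 2-fold limit and 2 at the lowest limit tried (0.32 on the log2 scale). In wt WLc it went from 0 to 2 at that limit. In pifq R1h it was 1 and became 0 with a pseudocount of 0.5 of the median (LNK2 0.53) and at 2-fold, and 3 at the lowest limit. In pifq WLc it was 1 and became 0 at 2-fold. At the lowest limit, the count lower in WLc than in R1h went from 0 to 1 in wt and from 0 to 2 in pifq. The 18 shares of all entries past the limit (9 comparisons, each direction) were all lower by over 1.5 times with a pseudocount of 0.5 of the median and without weak peaks. In wt R1h, 4.37% were higher, but 1.42% with a pseudocount of 0.5 of the median and 1.73% without the peaks with the least signal (25% of entries), and in pifq R1h 0.628% were lower, but 0.0154% and 0.00686%. By Pearson's r, 0, 0, 1 and 1 of the 3 closest peaks of LNK1, LNK2, LNK3 and LNK4 remained. No paired analysis was possible because the pooled columns carry no replicate numbers, and no replicate could be left out.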
